A study of Mus musculus with 8 samples.

Results

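The 9 genes described here encode receptors and ligands that tune T cell activation: Cd28, Icos, Ctla4, Pdcd1, Btla, Cd274, Pdcd1lg2, Lag3 and Havcr2. They were chosen by name, with earlier results of these data known, so their counts and medians beside those of all genes only describe. All 9 had at least 1 probe set with a single symbol on the array, 12 probe sets in all. They are 9 of 18193 named genes measured, and all 9 were among the 13983 bright enough to be tested. A T cell needs a signal through its antigen receptor and a second one from CD28, and the other molecules add to that second signal or hold it back. CD28, ICOS and CTLA-4 are related surface receptors that bind B7 proteins on antigen-presenting cells, PD-1 (from Pdcd1) binds PD-L1 and PD-L2 (from Cd274 and Pdcd1lg2), BTLA binds HVEM, and LAG-3 and TIM-3 (from Lag3 and Havcr2) are receptors that restrain T cells. Several of the inhibitory ones are known to be induced by activation, so that they mark activated T cells as well as limiting them.

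The study used CD4+ T cells in primary culture, from BALB/c mice, measured on Affymetrix arrays in 4 groups of 2 arrays. The groups were stimulated cells with dorsomorphin, stimulated cells, unstimulated cells with dorsomorphin, and control cells. Stimulation was by plate-bound antibody to CD3 with soluble antibody to CD28, begun 1 h before dorsomorphin (4 µM) or DMSO was added for a further 6 h, and all groups without the drug had DMSO. Dorsomorphin blocks type I receptors of bone morphogenetic proteins and also the kinase AMPK. One of the stimulating antibodies binds the product of Cd28, a member studied here. The labels do not state the age of the mice, whether cells were pooled, or whether the 2 arrays of a group came from separate cultures, so the p-values cover the variation among these arrays alone, and that variation may be technical. RNA of a whole culture was measured, so that fewer cells making a transcript and less of it per cell cannot be told apart.

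A signal is the deposited brightness of a probe set, given as log2, and a log2 fold is the difference of 2 group means on that scale. A gene was called where limma's p-value, adjusted over all 13983 genes by the Benjamini-Hochberg method, was under 0.05. A working floor of log2 5.22, the 40th percentile of all values, marks where a signal cannot be told from dim probe sets. Arrays had median signals between 45.4 and 74.5, and their number limits the precision of every value. T cell markers were bright, with Cd3d between 13.14 and 14.45 and Cd4 between 7.97 and 11.02 on the 8 arrays, and all 8 CD4 T cell markers were above the floor on all arrays. Markers of CD8 and NK cells were measured too. Cd8a lay between 4.34 and 6.81, Cd8b1 between 6.47 and 8.74 and Klrd1 between 5.21 and 10.22. Eomes lay between 4.95 and 8.74 and Ncr1 between 2.32 and 5.41. The lowest values of all of these but Cd8b1 were under the floor. Over all genes tested, the median fold on the log2 scale was -0.27 for stimulation, -0.24 for dorsomorphin alone and 0.07 for dorsomorphin in stimulated cells, and it was 0.08, -0.02 and -0.18 after median centring of the arrays.

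Cd28, Ctla4 and Icos lie side by side on mouse chromosome 1 (build GRCm38.p6), Cd28 at 60746388 to 60773359, Ctla4 at 60909025 to 60915832 and Icos at 60960773 to 61000322. Pdcd1 is farther along the same chromosome at 94038305 to 94052553. Cd274 and Pdcd1lg2 are neighbours on chromosome 19, at 29362107 to 29388095 and 29410919 to 29472927, with 22824 bases between them. Btla lies on chromosome 16 at 45223705 to 45252895, Lag3 on chromosome 6 at 124904359 to 124912434 and Havcr2 on chromosome 11 at 46454931 to 46481255.

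The promoters of the 2 PD-1 ligand genes, of Pdcd1 and of Btla are shown because these 4 genes had the largest differences with stimulation among the members above the floor on every array. Each runs from 250 bases before to 50 after the transcript start listed by RefSeq in GRCm38.p6, written 5′ to 3′ on the gene's strand. Promoters were found for 6 of the 9 members. Capitals mark the letters GGAAA or TTTCC, the core recognised by NFAT, a family of transcription factors switched on by calcium in stimulated T cells.
Pdcd1lg2 (chr19:29410669-29410968, plus strand): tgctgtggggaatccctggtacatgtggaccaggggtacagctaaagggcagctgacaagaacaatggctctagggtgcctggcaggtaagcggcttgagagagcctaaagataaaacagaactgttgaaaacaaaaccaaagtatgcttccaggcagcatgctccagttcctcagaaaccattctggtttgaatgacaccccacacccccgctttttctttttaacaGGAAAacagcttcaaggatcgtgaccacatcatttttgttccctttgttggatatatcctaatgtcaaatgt
Cd274 (chr19:29367188-29367487, plus strand): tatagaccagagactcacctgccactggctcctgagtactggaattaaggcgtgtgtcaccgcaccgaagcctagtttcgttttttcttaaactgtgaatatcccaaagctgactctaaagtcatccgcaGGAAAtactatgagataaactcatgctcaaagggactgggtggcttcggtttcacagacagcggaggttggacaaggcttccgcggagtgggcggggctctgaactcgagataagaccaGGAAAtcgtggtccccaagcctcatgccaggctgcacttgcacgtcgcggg
Pdcd1 (chr1:94052504-94052803, minus strand): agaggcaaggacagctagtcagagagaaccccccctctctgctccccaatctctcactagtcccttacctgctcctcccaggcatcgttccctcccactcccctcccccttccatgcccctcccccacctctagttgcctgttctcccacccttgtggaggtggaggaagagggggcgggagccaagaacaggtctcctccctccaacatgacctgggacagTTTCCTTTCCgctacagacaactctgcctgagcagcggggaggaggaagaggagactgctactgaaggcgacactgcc
Btla (chr16:45224087-45224386, plus strand): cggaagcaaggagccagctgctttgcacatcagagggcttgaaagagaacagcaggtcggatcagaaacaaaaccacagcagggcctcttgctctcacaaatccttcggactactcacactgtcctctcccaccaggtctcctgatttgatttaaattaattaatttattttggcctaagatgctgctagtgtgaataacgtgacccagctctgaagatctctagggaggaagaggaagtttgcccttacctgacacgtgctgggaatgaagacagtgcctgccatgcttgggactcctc
Pdcd1 held 2 matches, starting 28 and 23 bases before the start, Cd274 held 2, starting 120 bases and 1 base before it, Pdcd1lg2 held 1, at 22 bases before it, and the Btla window held 0. The core is common: 61.3% of 32851 promoters of this length hold it on either strand. The AP-1 letters TGANTCA and an interferon-stimulated response element, which 7.81% and 3.44% of promoters hold, were matched 0 times in these 4 windows. A match describes letters in the window and not a bound site.

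The first question was what stimulation alone did to these genes. A PD-1 ligand gene and 2 inhibitory receptor genes rose, Pdcd1lg2, Btla and Pdcd1, so that 3 of 9 members were called, all higher. In this comparison 23.4% of all genes tested were called, 8.98% higher and 14.4% lower. The median log2 fold of the 9 members was 1.74, beside -0.27 for all genes.

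Pdcd1lg2, which encodes the PD-1 ligand PD-L2, had signals of 10.74 and 10.75 on the stimulated arrays, against 6.28 and 6.32 on the control arrays. The stimulated arrays were far above the control arrays, and the control level was about 1 log2 unit above the floor. Expression rose 21.8-fold, with a log2 fold of 4.44 ± 0.28 (SE, 2 arrays a group, limma adjusted p = 0.00784), and 0.472% of all genes had a larger change in either direction.

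Btla, an inhibitory receptor of T and B cells, had signals of 12.20 and 12.61 on the stimulated arrays, against 10.06 and 10.25 on the control arrays. The groups did not overlap. It rose 4.75-fold (2.25 ± 0.31, limma adjusted p = 0.0118).

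Pdcd1, which encodes the inhibitory receptor PD-1, had signals of 11.42 and 11.36 on the stimulated arrays, against 9.41 and 9.90 on the control arrays. The stimulated arrays were again both higher. It rose 3.34-fold (1.74 ± 0.24, limma adjusted p = 0.0118), and the control arrays differed from each other by 0.49, the stimulated arrays by 0.06.

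Cd274, which encodes PD-L1, the other PD-1 ligand, had signals of 12.57 and 12.00 on the stimulated arrays, against 8.62 and 8.53 on the control arrays. The difference was large, 13.1-fold, and the groups did not overlap, yet it was not called (3.71 ± 1.11, limma adjusted p = 0.0601). The error is estimated over all 4 groups, and it includes a wide gap between the arrays of stimulated cells with dorsomorphin, described later. A fit of the 4 arrays of this comparison alone gave a limma adjusted p of 0.0405. It was 0.0189 with log2(signal + 32), 0.0243 with the filter at the 60th percentile and 0.0286 with limma's robust fit and a variance trend. The gene stayed uncalled after cyclic loess (0.0559), after median centring (0.0597) and without a filter on dim genes (0.0920). With 1 array left out the log2 fold lay between 3.43 and 3.99.

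The CD28-like receptors Cd28, Icos and Ctla4 were not called. Cd28, the main costimulatory receptor, had signals of 12.80 and 12.99 on the stimulated arrays, against 13.61 and 13.69 on the control arrays. Both stimulated arrays were lower, and the log2 fold of -0.75 ± 0.23 did not pass (limma adjusted p = 0.0610), although it did with log2(signal + 32) (0.0416), the filter at the 60th percentile (0.0253) and limma's robust fit and a variance trend (0.00980). After median centring the log2 fold was -0.40 (0.493).

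Icos, an inducible costimulator, had signals of 12.42 and 12.16 on the stimulated arrays, against 11.59 and 11.73 on the control arrays. Its log2 fold of 0.63 ± 0.45 did not pass (limma adjusted p = 0.363). Ctla4, an inhibitory receptor that competes with CD28 for B7 proteins, had signals of 12.18 and 11.89 on the stimulated arrays, against 11.99 and 11.30 on the control arrays. These overlapped, with a log2 fold of 0.39 and a 95% interval from -0.43 to 1.21 (limma adjusted p = 0.448).

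Lag3, an inhibitory receptor that binds MHC class II, had signals of 7.48 and 8.56 on the stimulated arrays, against 6.32 and 4.97 on the control arrays. Both stimulated arrays were higher, 1 control array was under the floor, and the log2 fold of 2.38 ± 1.09 did not pass (limma adjusted p = 0.169). Havcr2, which encodes TIM-3, had signals of 6.55 and 6.72 on the stimulated arrays, against 5.61 and 5.70 on the control arrays. All 4 lay close to the floor, and its log2 fold of 0.98 ± 0.84 did not pass either (limma adjusted p = 0.448).

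**Figure D1:**
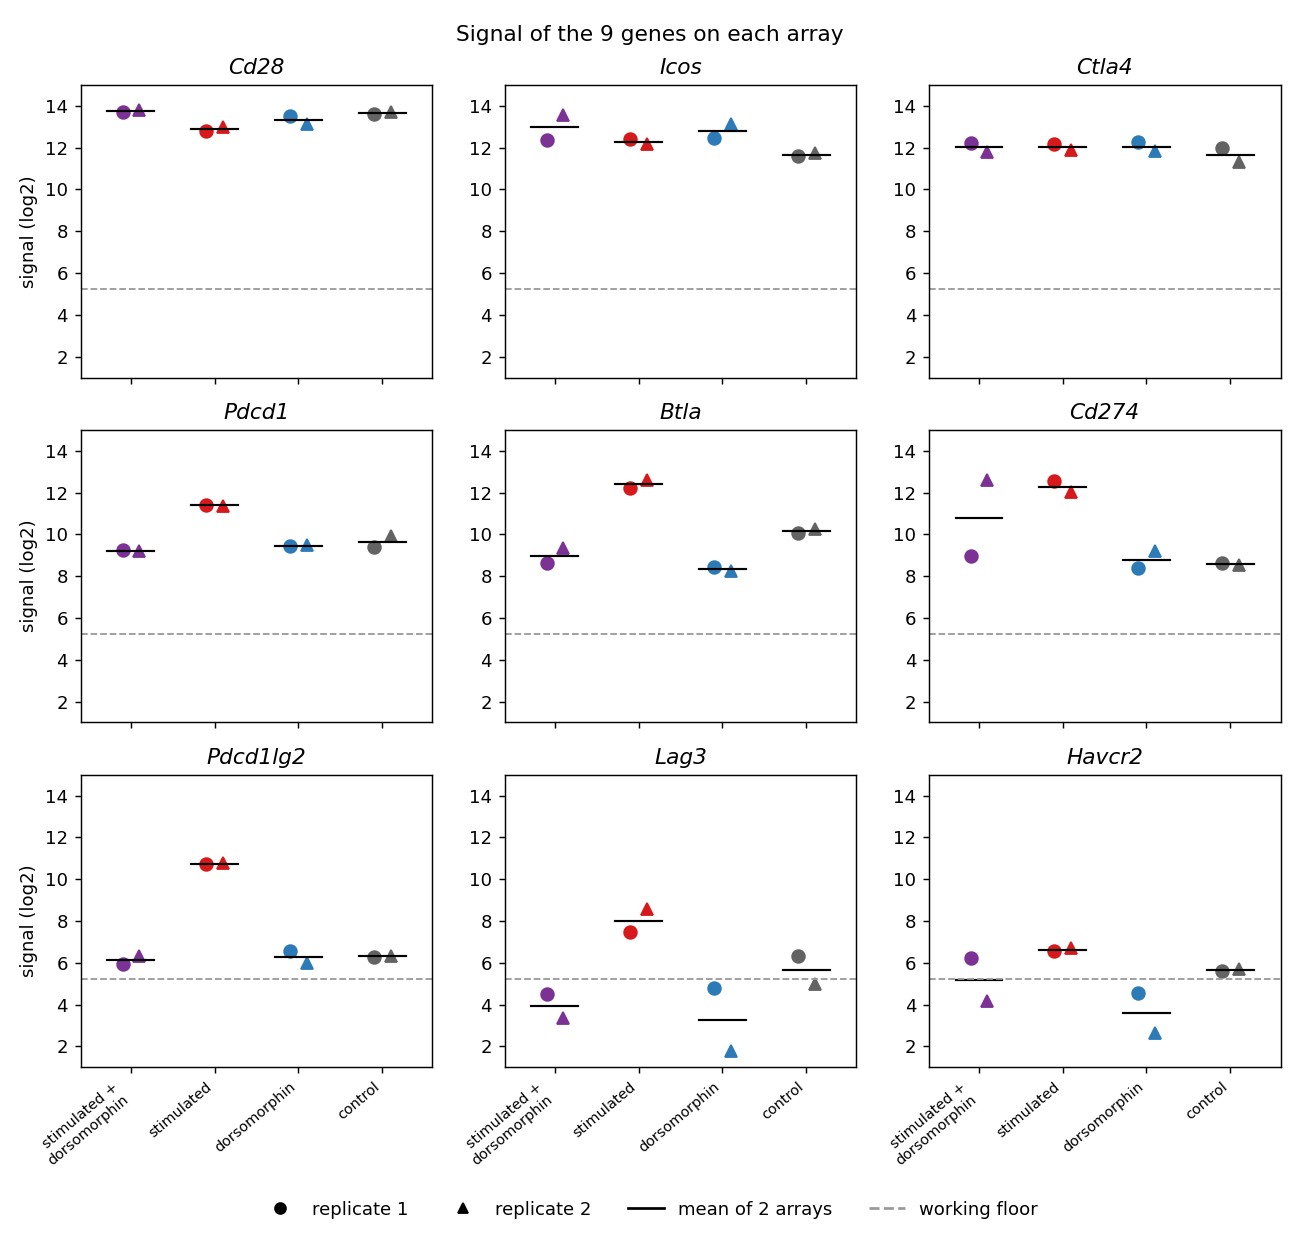
Signal (log2) of the 9 genes on each of the 8 arrays, with circles for replicate 1, triangles for replicate 2, a bar for the mean of the 2 arrays and a dashed line for the working floor of 5.22. Pdcd1lg2, Btla and Pdcd1 were high on both stimulated arrays without dorsomorphin, and the 2 Cd274 arrays of stimulated cells with dorsomorphin lay at 8.96 and 12.58.

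Every call for stimulation, of members and of all genes, was lost when either control array was left out. Without control replicate 1 the log2 folds were 4.423 for Pdcd1lg2, 2.155 for Btla and 1.492 for Pdcd1. Without control replicate 2 they were 4.466, 2.341 and 1.986. Why the calls were lost was not tested. Without stimulated replicate 2, Btla and Pdcd1 also lost their calls, with log2 folds of 2.042 and 1.768.

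The second question was what dorsomorphin did to stimulated cells. Pdcd1lg2, Btla and Pdcd1 fell. Of the 9 members 4 were called lower and 1, Cd28, higher, and the lower ones include Lag3, which entered the test through the stimulated group where it was high and so adds nothing to the count. In this comparison 22.1% of all genes were called, 9.71% higher and 12.4% lower. The median log2 fold of the 9 members was -1.51, beside 0.07 for all genes. The stimulated arrays without the drug are shared with the previous comparison, so opposite signs in the 2 comparisons are not independent.

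Pdcd1lg2 had signals of 5.93 and 6.35 in stimulated cells with dorsomorphin, against 10.74 and 10.75 in stimulated cells. The level with the drug was close to that of the control arrays. It fell by 4.61 ± 0.28 on the log2 scale, a 24.4-fold difference (limma adjusted p = 0.00491).

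Btla had signals of 8.64 and 9.33 in stimulated cells with dorsomorphin, against 12.20 and 12.61 in stimulated cells. Both arrays with the drug were below the 2 control arrays as well. It fell by 3.42 ± 0.31, a 10.7-fold difference (limma adjusted p = 0.00576), and 1.82% of all genes had a larger change.

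Pdcd1 had signals of 9.24 and 9.20 in stimulated cells with dorsomorphin, against 11.42 and 11.36 in stimulated cells. Within each group the arrays differed by 0.05 and 0.06. It fell by 2.17 ± 0.24, a 4.51-fold difference (limma adjusted p = 0.00642).

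Lag3 had signals of 4.49 and 3.38 in stimulated cells with dorsomorphin, against 7.48 and 8.56 in stimulated cells. Both arrays with the drug were under the floor, so the change is a bound: Lag3 was at least 6.97-fold lower. Its limma adjusted p of 0.0460 comes from the values under the floor as deposited and not from the bound. Lag3 exceeded the floor on 3 of the 8 arrays, both stimulated ones among them, and it passed the filter through that group.

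Cd28 had signals of 13.73 and 13.78 in stimulated cells with dorsomorphin, against 12.80 and 12.99 in stimulated cells. It was 1.82-fold higher with the drug (0.86 ± 0.23, limma adjusted p = 0.0443), which is a small change beside those above: 43.9% of all genes had a larger one. After median centring the log2 fold was 0.60 and the limma adjusted p 0.297, and after cyclic loess they were 0.58 and 0.152. The call was also lost when any 1 array was left out (0.0548 to 0.134).

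The remaining members were not called. Ctla4 had signals of 12.22 and 11.81 in stimulated cells with dorsomorphin, against 12.18 and 11.89 in stimulated cells. The log2 fold was -0.02, with a 95% interval from -0.84 to 0.80. Icos had signals of 12.38 and 13.57 in stimulated cells with dorsomorphin, against 12.42 and 12.16 in stimulated cells (log2 fold 0.69 ± 0.45, limma adjusted p = 0.329). Havcr2 had signals of 6.23 and 4.16 in stimulated cells with dorsomorphin, against 6.55 and 6.72 in stimulated cells (-1.44 ± 0.84, limma adjusted p = 0.279).

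**Figure D2:**
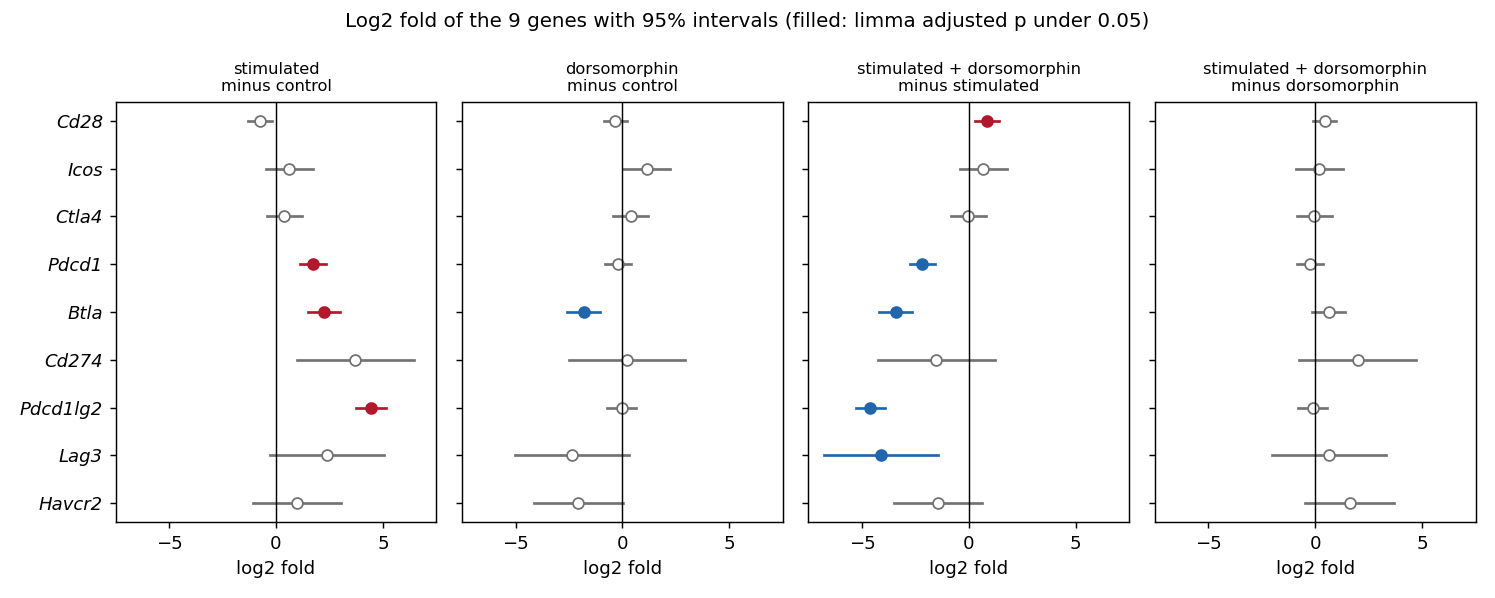
Log2 fold of each of the 9 genes (points) with its 95% interval (lines) in 4 comparisons, filled where the limma adjusted p was under 0.05, red for higher and blue for lower. Pdcd1lg2, Btla and Pdcd1 were called in opposite directions for stimulation and for dorsomorphin in stimulated cells, and 0 genes were called for stimulation in the presence of the drug.

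The falls of Pdcd1lg2, Btla and Pdcd1 kept their calls when any 1 of the 8 arrays was left out (limma adjusted p between 0.0146 and 0.0371). A fit of the 4 arrays of this comparison alone called 0 genes of all tested, with 4040 at an unadjusted p under 0.05, and these 3 genes then had an adjusted p of 0.0605. The call of Lag3 was lost without either array of the 2 groups compared or either control array (0.0734 to 0.183), and without a filter on dim genes (0.0727).

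Cd274 stood apart from the other members in stimulated cells with dorsomorphin. Its 2 arrays there had signals of 8.96 and 12.58, against 12.57 and 12.00 in stimulated cells. Replicate 1 was near the control level of 8.62 and 8.53, while replicate 2 was as high as the stimulated arrays without the drug. The log2 fold of -1.51 ± 1.11 was not called (limma adjusted p = 0.382). Without replicate 2 of that group it was -3.32 (limma adjusted p = 0.0262), and without replicate 1 it was 0.30 (0.722).

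The gap of 3.62 log2 units between these arrays was among the wider ones on them: 1.07% of all genes had a larger gap, the median being 0.44, and 40 genes were raised more on replicate 2 than Cd274. The neighbouring gene Pdcd1lg2 differed by 0.41 between the same arrays, Pdcd1 by 0.05 and Btla by 0.69. Other members had wider gaps: replicate 2 minus replicate 1 was 1.19 for Icos, -2.06 for Havcr2 and -1.12 for Lag3. Lag3 was under the floor on both arrays and Havcr2 on replicate 2. For Cd28 and Ctla4 it was 0.06 and -0.40. PD-L1 is known to be induced by interferon gamma, so genes known to respond to interferon were looked at on these arrays. The list of 14 was chosen after the values were seen and was not tested. All 14 had a higher value on replicate 2, by 0.49 to 3.75 log2 units with a median of 2.01, while 43.8% of all genes were higher there. Among them Cxcl9 was under the floor on both arrays (2.76 and 4.70), so its gap is not a measured rise.

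Gbp2, an interferon-induced GTPase, had signals of 10.23 and 13.76 on these arrays, Gbp6 7.84 and 11.58, and Irf1, a transcription factor of this response, 12.12 and 14.06. Ifng, the interferon gamma gene, had signals of 5.37 and 6.24 in stimulated cells with dorsomorphin, against 11.75 and 12.65 in stimulated cells. Interferon-induced genes and Cd274 were raised on an array where Ifng was within about 1 log2 unit of the floor. Genes outside the list of 14 were raised on that array too. Among them were Il2ra, the alpha chain of the interleukin-2 receptor (5.77 on replicate 1 and 8.33 on replicate 2), and Trat1 (10.43 and 12.90). In stimulated cells without the drug all 14 were lower on replicate 2, by a median of 0.99, and Cd274 was lower there by 0.56. In cells with dorsomorphin alone 10 of the 14 were higher on replicate 2, by a median of 0.22 over the 14, and Cd274 by 0.80, and in control cells 9 of the 14 were, by a median of 0.04, while Cd274 differed by -0.09. The part of interferon in the Cd274 gap was not tested.

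**Figure D3:**
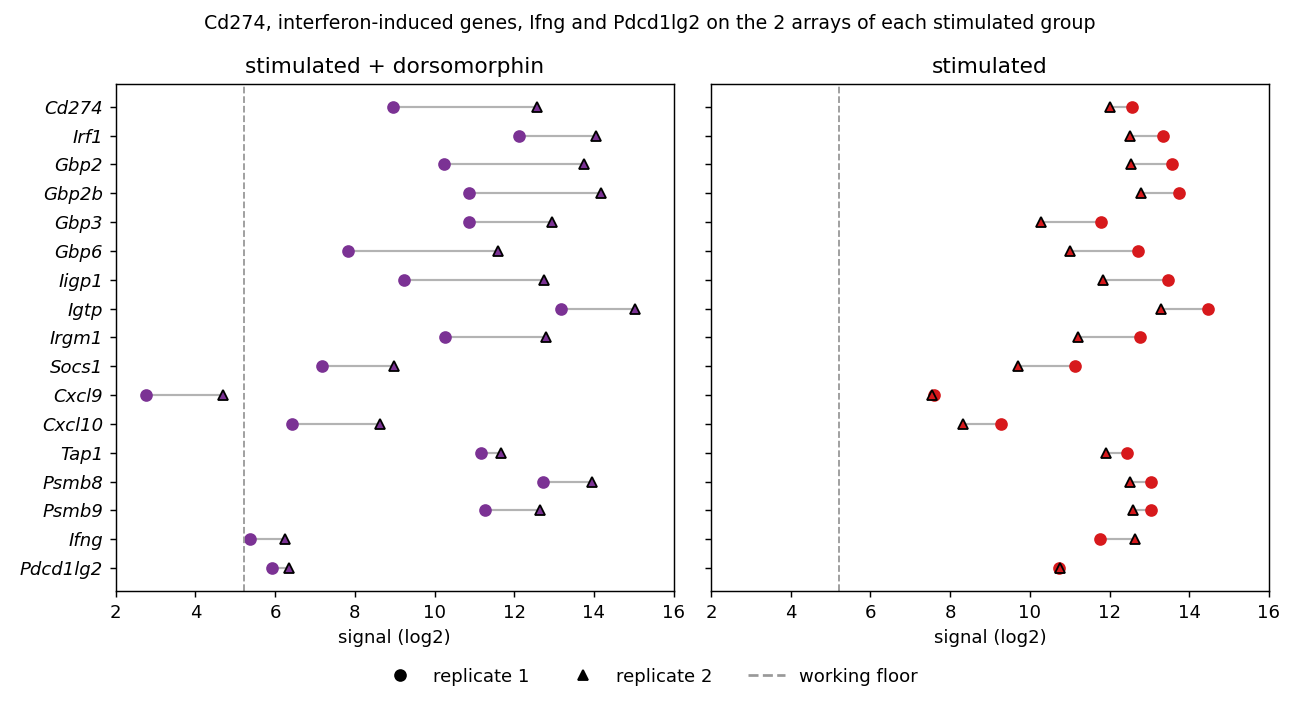
Signal (log2) of Cd274, 14 interferon-induced genes, Ifng and Pdcd1lg2 on replicate 1 (circles) and replicate 2 (triangles) of stimulated cells with dorsomorphin (left) and stimulated cells (right), with the working floor dashed. On the left Cd274 and all 14 genes had higher values on replicate 2, by 0.49 to 3.75 for the 14, with Cxcl9 under the floor on both arrays, while Ifng and Pdcd1lg2 lay between 5.37 and 6.35.

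A further question was what dorsomorphin did without stimulation. Of the 9 members, 1 was called, Btla, which was lower, where 13.1% of all genes were called, 1.92% higher and 11.1% lower. The control arrays are shared with the stimulation comparison. Btla had signals of 8.44 and 8.27 in cells with dorsomorphin, against 10.06 and 10.25 in control cells. It fell by 1.80 ± 0.31 on the log2 scale, a 3.48-fold difference (limma adjusted p = 0.0236). The call was lost after median centring (-1.58, 0.0966) and when either array of either group was left out (0.0597 to 0.144).

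Icos had signals of 12.45 and 13.13 in cells with dorsomorphin, against 11.59 and 11.73 in control cells. The groups did not overlap, and the log2 fold of 1.13 ± 0.45 did not pass (limma adjusted p = 0.153). The other 2 Icos probe sets gave 1.13 and 1.37, which did not pass either when all probe sets were tested (0.145 and 0.0737). On the probe set used, the 2 control arrays were the lowest of all 8 for Icos.

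Pdcd1 had signals of 9.43 and 9.49 in cells with dorsomorphin, against 9.41 and 9.90 in control cells (log2 fold -0.20, 95% interval -0.79 to 0.40). Its sign turned after median centring (0.02) and cyclic loess (0.11). Pdcd1lg2 had signals of 6.55 and 5.98 in cells with dorsomorphin, against 6.28 and 6.32 in control cells (-0.04, interval -0.73 to 0.65), and its sign turned with the same scalings (0.18 and 0.70). For both genes the arrays of the 2 groups overlapped.

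Cd28 had signals of 13.49 and 13.14 in cells with dorsomorphin, against 13.61 and 13.69 in control cells (-0.33 ± 0.23, limma adjusted p = 0.378). Ctla4 had signals of 12.25 and 11.85 in cells with dorsomorphin, against 11.99 and 11.30 in control cells (0.40 ± 0.33, 0.468). Cd274 had signals of 8.39 and 9.19 in cells with dorsomorphin, against 8.62 and 8.53 in control cells (0.22 ± 1.11, 0.923). None of these 3 passed, and Ctla4 and Cd274 overlapped between the groups.

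Lag3 and Havcr2 were under the floor on both arrays with dorsomorphin. Lag3 had signals of 4.80 and 1.77 in cells with dorsomorphin, against 6.32 and 4.97 in control cells. Control replicate 2 was under the floor too, so no bound is given for Lag3. Havcr2 had signals of 4.54 and 2.62 in cells with dorsomorphin, against 5.61 and 5.70 in control cells, and was at least 1.35-fold lower. Neither passed (limma adjusted p = 0.203 and 0.161).

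The last question was whether stimulation still changed these genes when dorsomorphin was present. Limma called 0 of the 9 members and 0% of all genes tested, with 539 genes at an unadjusted p under 0.05. The log2 folds, stimulated with dorsomorphin minus dorsomorphin alone, were 0.44 for Cd28, 0.19 for Icos, -0.03 for Ctla4, -0.24 for Pdcd1, 0.63 for Btla and -0.12 for Pdcd1lg2. Lag3 was under the floor on all 4 arrays and Havcr2 on 3 of them, so no fold is given for these. The 95% intervals bound what could have been missed: that of Pdcd1lg2 ran from -0.81 to 0.57, that of Pdcd1 from -0.83 to 0.36 and that of Btla from -0.14 to 1.39. Without the drug the same 3 genes had log2 folds of 4.44, 1.74 and 2.25, each outside its interval here. Those folds have errors of their own, so this is not a test of a difference. The interaction, given next, tests that same difference, and of the 3 it was called for Pdcd1lg2 alone. Cd274 had a log2 fold of 1.98 with a wide interval, from -0.74 to 4.71, which holds its change without the drug.

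The difference between the effects of dorsomorphin in stimulated and in unstimulated cells was tested by the interaction. It was called for 1 member, Pdcd1lg2, which was lower, and for 0.0858% of all genes, 0.0358% higher and 0.0501% lower. Its value for Pdcd1lg2 was -4.57 ± 0.40 (limma adjusted p = 0.0492). For Pdcd1 it was -1.98 ± 0.34 (0.0623), for Btla -1.62 ± 0.44 (0.0990) and for Cd28 1.19 ± 0.32 (0.0976), and these did not pass. The median of all genes was 0.35, above 0 like the value of Cd28. The Pdcd1lg2 call was lost under several settings, given in the closing section.

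In order of mean signal, Pdcd1 ran from stimulated cells (11.39) through control (9.65) and dorsomorphin (9.46) to stimulated cells with dorsomorphin (9.22). Pdcd1lg2 ran from stimulated cells (10.75) through control (6.30) and dorsomorphin (6.26) to stimulated cells with dorsomorphin (6.14), and for both genes the step below stimulated cells was the one past limma's threshold. Btla ran from stimulated cells through control cells to stimulated cells with dorsomorphin and dorsomorphin alone, and no neighbours in that order overlapped. Cd28 ran from stimulated cells with dorsomorphin (13.76) through control (13.65) and dorsomorphin (13.32) to stimulated cells (12.90). On the probe set used the arrays of neighbours did not overlap. On the other Cd28 probe set stimulated cells with dorsomorphin (13.21 and 13.42) overlapped control cells (13.29 and 13.28). Icos ran from stimulated cells with dorsomorphin (12.98) through dorsomorphin (12.79) and stimulated cells (12.29) to control (11.66). On the probe set used its first 2 groups overlapped. The next step separated the arrays by a lowest value of 12.45 against a highest of 12.42, and the control arrays lay below the rest. On each of the other Icos probe sets stimulated replicate 2 lay under control replicate 1 (11.32 under 11.43, and 9.75 under 9.77). Ctla4 group means lay between 11.65 and 12.05, and every pair of groups overlapped. Cd274 ran from stimulated cells (12.28) through stimulated cells with dorsomorphin (10.77) and dorsomorphin (8.79) to control (8.57), and every pair of neighbours in that order overlapped. Lag3 and Havcr2 were highest in stimulated cells, at 8.02 and 6.64, and under the floor on both arrays with dorsomorphin alone. The share of all genes whose groups separate in this way was not counted. With 2 arrays a group, separation or overlap here and above therefore only describes these arrays.

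Cd28 and Icos were the members with more than 1 probe set. The second Cd28 probe set gave a log2 fold of -0.80 for stimulation and 0.83 for dorsomorphin in stimulated cells, beside -0.75 and 0.86 on the first. The 3 Icos probe sets gave 0.63, 0.56 and 0.71 for stimulation. Probe sets of the same gene therefore differed by less than the SE of each value.

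**Figure D4:**
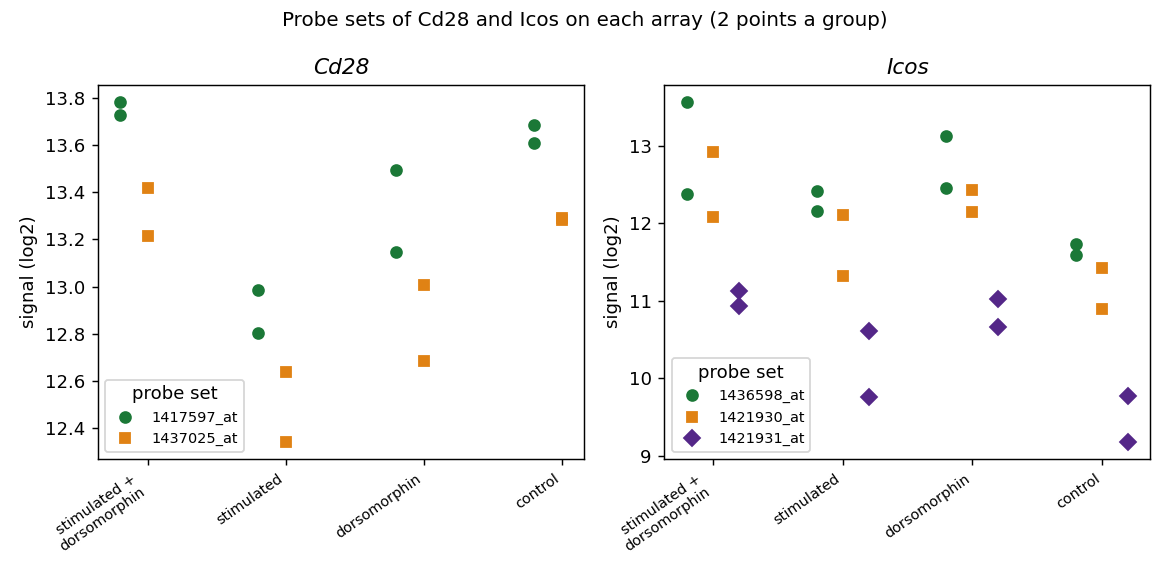
Signal (log2) on each array of the 2 probe sets of Cd28 (left) and the 3 of Icos (right), 2 points per group and probe set, with separate signal scales in the 2 panels. In both Cd28 probe sets the stimulated arrays lay lowest, and in all 3 Icos probe sets the control group had the lowest mean.

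For each member the genes with the most similar pattern over the 8 arrays were sought by Pearson's r of log2 signal, as a description across arrays that fall into 4 groups. Pdcd1 was most like Gch1 (r = 0.994), a biopterin synthesis enzyme, and Eprs (0.989), an aminoacyl-tRNA synthetase. Btla was most like Stap1 (0.998) and Farsb (0.997), and Pdcd1lg2 most like Utp4 (0.995) and Rrp1 (0.993), 2 ribosome assembly genes. Cd274 was most like Socs2 (0.991) and the interferon-induced GTPase gene Gbp2b (0.984). Cd28 was most like Pdk2 (0.969) and Pxmp2 (0.962), Icos like Snw1 (0.987) and Akt2 (0.964), and Ctla4 like Ltbr (0.980) and Eprn (0.975). Pdk2, Ltbr and Eprn were under the floor on some arrays, with lowest values of 3.17, 3.58 and 3.92. Their likeness rests in part on those dim signals. For Lag3 and Havcr2, above the floor on 3 and 5 of the 8 arrays, no likeness is given. Each pair was the highest among 13983 genes searched, so the values only describe these arrays.

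Of 20 other checkpoint and costimulatory receptors measured, 5 were higher and 2 lower with stimulation, where 23.4% of all genes were called, and their median of 0.11 compares with -0.27 for all genes. Tnfrsf9 (the costimulatory receptor 4-1BB) rose by 3.62, Cd69 (an early activation marker) by 3.59, Cd200 (a ligand that restrains myeloid cells) by 3.24, Cd160 (a receptor that shares HVEM with BTLA) by 2.95 and Tnfrsf4 (OX40) by 2.15 log2 units, while Cd96 (-2.14) and Nt5e (-2.07) fell. In stimulated cells with dorsomorphin 10 were lower than in stimulated cells and 1 higher, where 22.1% of all genes were called, with a median of -0.93. The log2 fold was -3.43 for Tnfrsf9, -2.86 for Tnfrsf4, -2.34 for Cd160, -2.33 for Cd200 and -2.16 for Cd69. Cd226, an activating receptor for nectins, was among the 10 but had means under the floor in both groups, so no fold is given. With dorsomorphin alone 4 fell and 0 rose, where 13.1% of all genes were called, among them Cd96 (log2 fold -2.96), Cd5 (-2.09) and Cd27 (-1.88).

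Other ligands of these receptors showed few changes. Of 15 listed, 11 were bright enough to be tested. Among these 1 was lower with stimulation, Lgals3 (galectin-3) at -1.94, and the same gene was the 1 called with dorsomorphin alone, at -1.87. With dorsomorphin in stimulated cells Vsir, which encodes the checkpoint molecule VISTA, fell by 2.03 and Cd80, a B7 ligand of CD28 and CTLA-4, rose by 1.16 at a level close to the floor. The list medians were -0.45, -1.12 and -0.14 for stimulation, dorsomorphin alone and dorsomorphin in stimulated cells. Of all genes, 23.4%, 13.1% and 22.1% were called in these comparisons.

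Among 23 adaptors, kinases and phosphatases that carry these receptors' signals, 3 rose and 4 fell with stimulation, a share not far from the 23.4% of all genes called. Malt1, a protease of the NF-kappaB pathway, rose by 1.88 and Zap70, a receptor-proximal kinase, by 1.48, while Grap2, an adaptor, fell (-2.33), as did Pik3r1, a regulatory subunit of PI3-kinase (-2.26). In stimulated cells with dorsomorphin 1 rose and 4 fell, where 22.1% of all genes were called: Grap2 rose by 3.06, and Ptpn6, which encodes the phosphatase SHP-1, fell (-2.98), as did Malt1 (-2.52), Zap70 (-2.03) and Lcp2, an adaptor (-1.74). With dorsomorphin alone, where 13.1% of all genes were called, 1 rose and 5 fell, among them Ptpn6 (-2.89) and Inpp5d, the phosphatase SHIP-1 (-1.64).

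Of 22 transcription factors known to act on checkpoint genes, 6 rose and 2 fell with stimulation, where 23.4% of all genes were called. Irf4 rose by 6.11, Nr4a3 by 4.61, Tbx21 (T-bet) by 4.46, Nr4a1 by 3.90 and Rel by 2.09, and Nfatc1 rose by 1.80. In stimulated cells with dorsomorphin 5 fell and 3 rose, where 22.1% of all genes were called. The log2 fold was -5.65 for Irf4, -4.03 for Nr4a3, -3.95 for Tbx21, -3.05 for Nr4a1 and -1.75 for Nfatc2. Foxo1, a factor of resting T cells, rose by 1.71. With dorsomorphin alone, where 13.1% of all genes were called, Nfatc2 (-1.90) and Prdm1 (-1.66) fell and Rel rose by 1.68.

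T cell markers themselves moved with the drug. The summed signal of 8 CD4 T cell markers was 22757 and 30194 in stimulated cells with dorsomorphin, 49062 and 47559 in stimulated cells, 22626 and 16714 in cells with dorsomorphin, and 67588 and 67082 in control cells. With dorsomorphin alone 6 of the 8 fell, among them Cd3g (log2 fold -3.51) and Cd3e (-2.22), and in stimulated cells 2 fell, Cd3g (-2.37) and Cd5 (-1.97). Of all genes, 11.1% were called lower with dorsomorphin alone and 12.4% with dorsomorphin in stimulated cells. The part of this shift in the falls of Btla, Pdcd1, Pdcd1lg2 and Lag3 was not tested.

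Several members are also made by B cells, macrophages and dendritic cells, so the markers of these cells are given beside them. The summed signal of 13 myeloid and dendritic markers was 2594 and 2126 in stimulated cells with dorsomorphin, 3061 and 1912 in stimulated cells, 2582 and 2006 in cells with dorsomorphin, and 5269 and 6566 in control cells. It was highest in control cells, and its part in the values of Pdcd1lg2 and Cd274 was not tested. With stimulation 3 of the 13 fell, where 14.4% of all genes were called lower. The sum of 7 B cell markers was 518 and 550 in stimulated cells with dorsomorphin, 480 and 327 in stimulated cells, 298 and 304 in cells with dorsomorphin, and 572 and 704 in control cells. The B cell sum was thus lowest with dorsomorphin alone, where Btla was lowest too. In stimulated cells, where Btla was highest, the sum was below that of control cells. Its part in the Btla values was not tested. Of the 13 myeloid and 7 B cell markers, 0 lay under the floor on all 8 arrays. Their brightness varied: Lyz2 lay between 7.73 and 10.74, but Cd79a between 1.93 and 5.70 and Itgam between 0.50 and 5.70. Part of both sums therefore comes from signals near or under the floor.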

How the data were processed

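For each of 8 arrays, the authors deposited an intensity on a linear scale for every one of 45101 probe sets. RMA and affy are named, with no version, per the submitters' processing notes. RMA gives log2 values, whereas these are linear, go down to 0.0605 and have a trimmed mean of 500 on each array, so how they were made is unknown.

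The log2 of each value was taken without further normalization. Genes were named through the platform annotation, and each took the value of its brightest probe set, by mean over the arrays. Genes above the 40th percentile of all values on at least 2 arrays were tested (13983 of 18193). All 8 arrays were fitted with limma 3.58.1 in R 4.3.3, without a replicate block, with two-sided p-values adjusted by the Benjamini-Hochberg method. The fit was tested on simulated data. Figures were drawn with matplotlib 3.10.9 in Python 3.11.15.

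The members and lists were chosen with earlier results of these data known. All members are named, with at most 6 called genes per list and comparison, those with the largest absolute log2 folds, and the 2 genes most like each member, other than Lag3 and Havcr2. A change against a group whose arrays both lie under the floor is a bound against the higher of floor and value, averaged over arrays. Alternatives changed the scaling, offset, filter, probe set rule, variance model, block and arrays used. Whether same-numbered replicates share anything is not stated: their deviations correlated between 0.069 and 0.178.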

Additional observations from a re-analysis of the deposited data

Results flagged for a closer look

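The change of Pdcd1lg2 with dorsomorphin differed between stimulated and unstimulated cells. It was -4.61 on the log2 scale in stimulated cells and -0.04 in unstimulated cells, and the difference of -4.57 passed limma's interaction test at an adjusted p of 0.0492. The adjusted p ran from 0.00205 to 0.0878 under the alternatives that kept all 8 arrays, and from 0.0360 to 0.221 when 1 array was left out. All 4 arrays that were unstimulated lay between 5.98 and 6.55, near the floor of 5.22, so a fall with the drug in unstimulated cells could be measured only over a short range.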

How the results depend on the processing

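The array number, and values near the floor for Lag3, Havcr2 and Pdcd1lg2, limit the precision. Of the member log2 folds under all alternatives, 702 kept direction and side of the threshold, 51 lost a call, 21 gained one and 22 changed sign. Where a value moved, the cause was not tested beyond what each setting changes.

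Members called with stimulation numbered 6 with log2(signal + 32), 5 with the 60th percentile filter and 5 with limma's robust fit and trend, against 3, and 0 to 4 with 1 array left out. With dorsomorphin alone they numbered 0 after median centring and 2 with the trend, against 1, and 0 to 1 with 1 array left out. With dorsomorphin in stimulated cells they numbered 3 without a filter, 3 with the mean of all probe sets and 0 with the 4 arrays alone, against 5, and 3 to 4 with 1 array left out. For the interaction they numbered 0 after median centring, without a filter, with the mean of probe sets and with every probe set on its own, 2 after cyclic loess, 3 with the offset, and 4 with the 60th percentile filter and with the trend, against 1, and 0 to 1 with 1 array left out.

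All genes called with stimulation numbered 2041 after median centring (1001 higher, 1040 lower), 2122 without a filter, 2127 with the mean of probe sets and 1668 with 4 arrays, against 3269 (1256 higher, 2013 lower), and 0 to 2940 with 1 array left out; cyclic loess gave 1690 higher and 1558 lower. With dorsomorphin alone they numbered 906 after centring, 1145 after loess (409 higher, 736 lower), 2870 with the offset, 927 without a filter, 2968 with the 60th percentile filter, 844 with the mean of probe sets, 3103 with the trend and 883 with 4 arrays, against 1825 (268 higher, 1557 lower), and 0 to 1591 with 1 array left out. With dorsomorphin in stimulated cells they numbered 0 with 4 arrays, against 3096 (1358 higher, 1738 lower), and 1000 to 2648 with 1 array left out, and centring gave 689 higher and 1520 lower. For stimulation in the presence of the drug 2 were called with the 60th percentile filter, against 0. For the interaction they numbered 0 after centring and without a filter, 204 after loess (65 higher, 139 lower), 1565 with the offset, 1867 with the 60th percentile filter, 2 with the mean of probe sets and 2036 with the trend, against 12, and 0 to 803 with 1 array left out.

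The replicate number as a block changed 1 of 45 member calls: the Pdcd1lg2 interaction had an adjusted p of 0.0548, so that 0 members and 0 genes were called. It changed no other member call, with 3997, 2317, 3640 and 0 genes called in the first 4 comparisons.

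Signs turned with scaling for dorsomorphin alone in Pdcd1 (0.022 after centring, 0.11 after loess) and Pdcd1lg2 (0.18 and 0.70), and for the interaction of Havcr2 with the offset (-0.0079).

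With 1 array left out, log2 folds of either sign were found for dorsomorphin alone in Pdcd1 (-0.44 to 0.0506), Cd274 (-0.18 to 0.62), Pdcd1lg2 (-0.32 to 0.24), for dorsomorphin in stimulated cells in Ctla4 (-0.22 to 0.18), Cd274 (-3.32 to 0.30), for stimulation in the presence of the drug in Icos (-0.41 to 0.78), Ctla4 (-0.23 to 0.17), Pdcd1lg2 (-0.41 to 0.16), Lag3 (-0.86 to 2.17), for the interaction in Icos (-1.04 to 0.15), Cd274 (-3.54 to 0.0779), Havcr2 (-0.41 to 1.66).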

Other observations

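Regulatory T cells are known to carry much CTLA-4. Of 9 of their markers, 2 rose and 2 fell with stimulation, where 23.4% of all genes were called: Il2ra, the alpha chain of the interleukin-2 receptor and also an activation gene, rose by 4.86 and Ikzf2 (Helios) by 0.90 on the log2 scale, while Itgae (-1.68) and Nrp1 (-1.54) fell. With dorsomorphin in stimulated cells, where 22.1% of all genes were called, 4 fell and 0 rose, Il2ra (-5.14), Gpr83 (-3.21), Capg (-2.33) and Ikzf2 (-0.94). With dorsomorphin alone, where 13.1% of all genes were called, 5 fell, among them Itgae (-2.97) and Capg (-2.40). Foxp3, the defining factor of these cells, had signals of 7.88 and 8.36 in stimulated cells with dorsomorphin, 9.77 and 8.63 in stimulated cells, 7.36 and 7.17 in cells with dorsomorphin, and 9.14 and 8.82 in control cells, and was not called. Ctla4 was not called in any of these comparisons.

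Among the 4 follicular helper markers tested, of 5 listed, Sh2d1a, which encodes the adaptor SAP, fell by 2.32 with stimulation. It rose by 1.86 with dorsomorphin in stimulated cells. Cxcr5 fell by 1.27 with stimulation. Il21, a cytokine of these cells, had signals of 7.80 and 8.82 in stimulated cells. It had 4.37 and 4.25 in stimulated cells with dorsomorphin, 5.03 and 3.58 in control cells and 4.13 and 4.78 in cells with dorsomorphin, all under the floor. Il21 thus entered the test through the stimulated group where it was high. Its calls, higher with stimulation and lower with dorsomorphin in stimulated cells, are therefore not read as results. Of 5 CD8 and NK markers, Klrd1 (CD94) was the 1 called in each comparison: its log2 fold was -4.41 with stimulation, -2.12 with dorsomorphin alone and 2.42 with dorsomorphin in stimulated cells. Of all genes, 23.4%, 13.1% and 22.1% were called there.

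Ctla4 was higher on replicate 1 than on replicate 2 in all 4 groups, by 0.40 in stimulated cells with dorsomorphin, 0.29 in stimulated cells, 0.40 in cells with dorsomorphin and 0.68 in control cells. Trat1, an adaptor that stabilises the T cell receptor, had a signal of 12.90 on replicate 2 of stimulated cells with dorsomorphin, the array on which Cd274 was high, against 10.43 on replicate 1.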
